A study of Mus musculus with 6 samples.

Results

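Ferritin subunits, iron transporters and iron-sensing proteins were examined as a set of 9 genes, Fth1, Ftl1, Tfrc, Steap3, Slc11a2, Slc11a1, Slc40a1, Ireb2 and Aco1, out of 17469 genes in the deposited expression table. The genes were listed by symbol, and the set was chosen by the measured difference between the genotypes described here, which was already known when the list was made. All 9 passed the filter on low counts, as did 12701 genes in all. Values of the 9 genes in the comparison of genotypes are therefore given as a description. The fit over all genes also marks which of the 9 pass its thresholds, and these marks are no independent test of them.

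RNA-seq was performed on bone marrow stromal cells (BMSCs) taken from the long bones of the hind legs of mice aged 6 months, cultured, passaged and sorted by FACS for the red reporter Ai9 (tdTomato). The control group was Ocn-Cre;Ai9, in which Cre recombinase is driven by the osteocalcin promoter and switches on tdTomato. The other group was TgAPPswe;Ocn-Cre;Ai9, which carries Cre and Ai9 as well and adds human APP with the Swedish mutation behind a stop cassette that Cre removes, under the ubiquitous CAG promoter. There were 3 libraries of each genotype and no treatment. The labels do not say how many mice went into a library, so the spread given here is that between libraries, which may be partly technical.

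Iron enters most cells bound to transferrin through the transferrin receptor, is reduced in the endosome, and reaches the cytosol through a divalent metal transporter. Iron that is not used is stored inside the ferritin shell or leaves through ferroportin. Macrophages of the bone marrow recycle iron from old red cells and so hold much ferritin and ferroportin. When iron is scarce, the iron regulatory proteins bind a hairpin in certain mRNAs, the iron-responsive element (IRE). An IRE in the 5′ UTR then blocks translation, and IREs in the 3′ UTR protect the mRNA from decay.

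The IREs of the set are shown because they divide the genes by how the iron regulatory proteins act on them. They were found in GENCODE M21 transcripts (GRCm38/mm10) as a C, any 5 bases and the 6-base loop CAGTGN, read on the transcript's own strand. The 5 bases before the loop had to pair with those after it, G-U pairs included, with at most 1 unpaired base in the 3′ arm. The sequences run 5′ to 3′ with the loop in capitals and 6 bases beyond the hairpin on each side.
Fth1, 5′ UTR, chr19:9982732-9982760, plus strand: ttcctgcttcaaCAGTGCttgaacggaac
Ftl1, 5′ UTR, chr7:45459779-45459807, minus strand: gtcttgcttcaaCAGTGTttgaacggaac
Slc40a1, 5′ UTR, chr1:45925465-45925493, minus strand: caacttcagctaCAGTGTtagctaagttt
Slc11a2, 3′ UTR, chr15:100395152-100395181, minus strand: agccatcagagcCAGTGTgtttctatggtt
Tfrc, 3′ UTR, chr16:32631219-32631247, plus strand: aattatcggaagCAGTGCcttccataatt
Tfrc, 3′ UTR, chr16:32631598-32631626, plus strand: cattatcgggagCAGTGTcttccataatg
Tfrc, 3′ UTR, chr16:32631663-32631691, plus strand: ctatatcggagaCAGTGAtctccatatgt
Tfrc, 3′ UTR, chr16:32631710-32631738, plus strand: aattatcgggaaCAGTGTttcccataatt

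Of the 9 genes, 5 held such a match in a UTR, and in 4 of these the upper stem was unbroken. The exception was Slc11a2, whose 3′ arm has 1 unpaired base. Among 21877 coding genes searched in the same way, 1.99% held a match in a UTR and 0.731% one with an unbroken stem. A match describes the letters and does not show that a protein binds there. No match was found in Slc11a1, Steap3, Ireb2 or Aco1.

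Total estimated counts per library were 19340810 to 19801060 in control and 21677461 to 22037840 in TgAPPswe cells. App, which counts mouse App and possibly the human transgene together, had an FPKM of 281, 275 and 281 in control and 325, 332 and 333 in TgAPPswe libraries, with an adjusted p of 7.87e-05 (edgeR quasi-likelihood test). The marker levels went against the labelled stromal identity and the osteoblast-lineage gate. Bglap, the osteocalcin gene, lay between 0 and 1.25 FPKM in all libraries. All 15 myeloid markers were expressed, with a summed FPKM of 18979 to 19803 in control and 16706 to 20204 in TgAPPswe libraries, against 1135 to 1222 and 656 to 925 for the 17 stromal and osteoblast markers. Spp1 made up most of the latter sum, at a mean of 944 and 561 FPKM, while the median of the 17 markers was 1.62 to 2.13 FPKM in control and 2.32 to 4.04 in TgAPPswe libraries. Of the 16 stromal and osteoblast markers tested, 2 were up-regulated, Dcn (mean FPKM 0.447 and 5.97) and Lum (0.01 and 0.767), and 0 down-regulated. Of the myeloid markers, 4 were up-regulated and 4 down-regulated, with log2 fold changes of 1.89 for Adgre1, -1.49 for Csf1r and -1.26 for Cd68 (adjusted p = 4.9e-06, 1.21e-06 and 3.37e-07, edgeR). Of 8 markers of dividing cells, 6 were down-regulated, and their summed FPKM was 379 to 431 in control and 199 to 214 in TgAPPswe libraries. Of 8 osteoclast markers, 6 were tested, with 3 up-regulated and 1 down-regulated. Of 6 erythroid markers, 5 stayed under an FPKM of 1 in all libraries, and the hemoglobin genes Hba-a1 and Hbb-bt were listed at 0 in the 3 control libraries. The sixth, Epor, the erythropoietin receptor gene, was down-regulated at a mean of 3.02 FPKM in control and 1.197 in TgAPPswe cells (log2 fold change -1.06, adjusted p = 0.00977, edgeR). The part of these cell type and cell cycle differences in the results on iron genes was not tested, and in bulk RNA fewer cells of a type and less RNA per cell cannot be told apart.

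Genes were called up-regulated or down-regulated where the adjusted p was 0.05 or less and the log2 fold change was 1 or more in size (edgeR, TMM normalization). Of the 9 iron genes, 3 were past both thresholds upward (Fth1, Slc11a1 and Slc11a2) and 1 downward (Slc40a1). Across all genes tested, 8.90% were called up-regulated and 9.20% down-regulated. At an adjusted p of at most 0.05 alone, 5 of the iron genes were higher and 4 lower, where 32.5% and 31.5% of all genes were. The 5 include Ireb2, and with library size alone 4 were higher and 4 lower. In FPKM the libraries of the 2 genotypes did not overlap for 8 of the 9 genes, 4 higher and 4 lower in TgAPPswe cells. Such a lack of overlap was common, at 72.3% of all genes tested, and since the set was chosen with these values known, nothing is read from its counts. The median log2 fold change was 0.25 over the 9 genes and -0.02 over all genes tested.

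**Figure D1:**
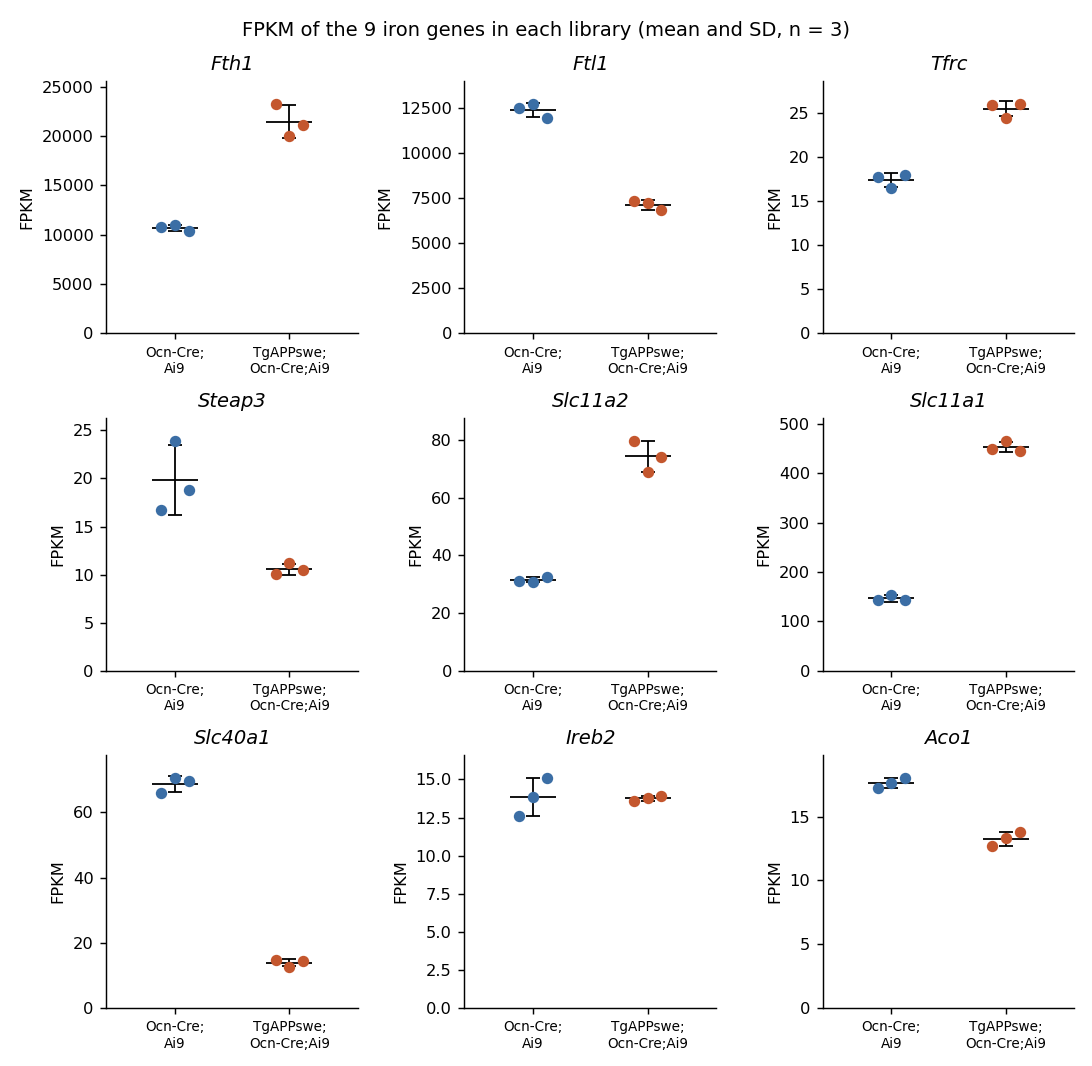
FPKM (vertical axis, linear and starting at 0, scaled for each gene) of the 9 iron genes in the 3 Ocn-Cre;Ai9 (blue) and 3 TgAPPswe;Ocn-Cre;Ai9 (orange) libraries. Points are libraries, horizontal lines are means and error bars are SD (n = 3); the genotypes overlap for Ireb2 alone, and Slc40a1 goes from about 68.7 to 13.8 FPKM.

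Storage was described by the ferritin subunits, whose mRNAs were the most abundant of the set. Fth1 (Entrez identifier 14319, chr19:9980598-9985098, plus strand) encodes ferritin heavy chain, the subunit with ferroxidase activity. It had an FPKM of 10772, 10943 and 10345 in control and 23250, 19957 and 21153 in TgAPPswe libraries. The lowest TgAPPswe library lay far above the highest control library. Its mean FPKM was 10687 ± 308 in control and 21454 ± 1667 in TgAPPswe cells (SD, n = 3), a ratio of 2.01, and the log2 fold change on TMM-scaled counts was 1.22 ± 0.08 (SE). Among all 17469 genes Fth1 ranked 3 by mean FPKM in control and 1 in TgAPPswe cells. With library size alone the log2 fold change was 1.005, just past the fold threshold. In limma on unfiltered log2(FPKM + 1) it was 1.003, and Fth1 was not past both thresholds since the adjusted p was 0.0797.

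Ftl1 (Entrez identifier 14325, chr7:45457944-45459884, minus strand) encodes ferritin light chain, which has no ferroxidase site and aids formation of the iron core. Its FPKM was 12513, 12733 and 11940 in control libraries and 7362, 7225 and 6824 in TgAPPswe libraries. All TgAPPswe libraries were below all control libraries, so the ferritin genes, whose printed hairpins have the same 5 paired bases on each side of the loop, differed between genotypes in opposite directions. The log2 fold change was -0.58 ± 0.07 (SE), and the fold threshold was not passed. Ftl1 was the only one of the 9 genes with fractional counts, which it had in all 6 libraries. Fractional counts arise where the authors' estimator shares reads between loci, and near-identical ferritin light chain copies were not analysed here, so its values are less certain.

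Within each library the ratio of Fth1 to Ftl1 FPKM does not depend on the scaling between libraries. It was 0.861, 0.859 and 0.866 in control and 3.16, 2.76 and 3.10 in TgAPPswe libraries. The control ratios lay within 0.01 of each other, and each TgAPPswe ratio was more than 3 times as high. Light chain mRNA exceeded heavy chain mRNA per length in every control library, and the order was turned in every TgAPPswe library. The sum of both FPKM values moved less, from 23082 ± 717 to 28591 ± 1795 (SD, n = 3). Both genes together took 1.98% to 2.10% of all counts in control and 2.39% to 2.69% in TgAPPswe libraries.

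**Figure D2:**
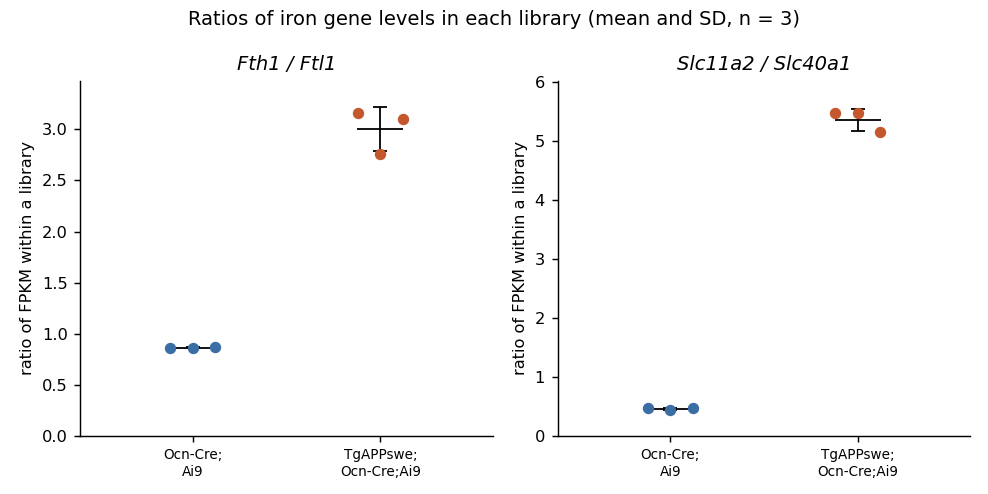
Ratios of FPKM within a library (vertical axes, linear, starting at 0) for Fth1 over Ftl1 on the left and Slc11a2 over Slc40a1 on the right, in 3 Ocn-Cre;Ai9 (blue) and 3 TgAPPswe;Ocn-Cre;Ai9 (orange) libraries. Points are libraries, lines are means and error bars are SD (n = 3); the Fth1 to Ftl1 ratio is 0.862 on average in control and 3.01 in TgAPPswe cells.

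The uptake genes did not move as a block. Tfrc (chr16:32608920-32632794, plus strand) encodes the transferrin receptor, and it was the gene with 4 IRE matches in the 3′ UTR. Its FPKM was 17.8, 16.5 and 17.98 in control libraries and 25.9, 24.5 and 26.04 in TgAPPswe libraries. The genotypes did not overlap, but the log2 fold change of 0.76 ± 0.06 (SE) was below the threshold. Dividing cells need much iron and are known for high Tfrc. Markers of dividing cells had lower values in TgAPPswe cells. Mki67 was at 21.6 to 25.2 FPKM in control and 6.81 to 9.63 in TgAPPswe libraries. The part of cell division in the Tfrc values was not tested.

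Steap3 (chr1:120190757-120272705, minus strand) encodes the metalloreductase that reduces transferrin-borne iron in the endosome. It had an FPKM of 16.8, 23.9 and 18.8 in control libraries and 10.03, 11.2 and 10.4 in TgAPPswe libraries. The control libraries were the most variable of any gene in the set, with a coefficient of variation of 18.5%, yet all lay above the TgAPPswe libraries. The log2 fold change was -0.69 ± 0.12 (SE), and it was -0.54 without control replicate 2, the highest library.

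Slc11a2 (chr15:100387898-100425072, minus strand) encodes DMT1, the transporter that carries ferrous iron from the endosome to the cytosol. Its FPKM was 31.2, 30.8 and 32.6 in control libraries and 79.6, 69.0 and 74.2 in TgAPPswe libraries. The 3 control values were nearly equal, and each TgAPPswe library had more than 2 times as much. The log2 fold change was 1.49 ± 0.08 (SE), with values of 1.21 to 1.55 over the main and 15 alternative settings. Gene-level values do not separate Slc11a2 transcripts with the 3′ IRE from those without it.

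Slc11a1 (chr1:74375195-74386062, plus strand) encodes NRAMP1, which moves divalent metals across the membrane of the phagosome and is known from macrophages and neutrophils. It had an FPKM of 143, 153 and 142 in control libraries and 450, 465 and 445 in TgAPPswe libraries. This was the most abundant transporter of the set in both genotypes, and its libraries were tightly grouped within each. The log2 fold change of 1.86 ± 0.06 (SE) was the highest of the 9 genes. The summed FPKM of 10 neutrophil markers was 53.9 to 106 in control and 70.4 to 94.6 in TgAPPswe libraries. Of the 8 of them that were tested, 1 was up-regulated and 0 down-regulated. Camp, the 1 called, rose by 3.02 on the log2 scale (edgeR, adjusted p = 0.00175). Its FPKM was 0.1 to 0.87 in control and 1.8 to 4.66 in TgAPPswe libraries. Csf3r was at 40.8 to 53.5 FPKM in control and 44.7 to 51.6 in TgAPPswe libraries. Ly6g was listed at 0 in control and at most 0.06 FPKM in TgAPPswe libraries. The part of these markers in the Slc11a1 values was not tested.

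Export was the step with the largest lower value in the set. Slc40a1 (Entrez identifier 53945, chr1:45908068-45926523, minus strand) encodes ferroportin, the known exporter of iron from cells and the target of the hormone hepcidin. Its FPKM was 66.0, 70.5 and 69.6 in control libraries and 14.5, 12.6 and 14.4 in TgAPPswe libraries. Every TgAPPswe library lay far below the lowest control value. The log2 fold change was -2.09 ± 0.08 (SE), and it lay between -2.31 and -2.02 over the main and 15 alternative settings. The gene's estimated counts were 4291, 4629 and 4467 in control and 1063, 915 and 1035 in TgAPPswe libraries, far above the low counts at which counting error dominates. Hepcidin itself, Hamp, was at 0 in all control libraries and at most 0.14 FPKM in TgAPPswe libraries.

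Set against the exporter, the ratio of Slc11a2 to Slc40a1 FPKM within a library was 0.472, 0.438 and 0.468 in control and 5.47, 5.47 and 5.15 in TgAPPswe libraries. Ferroportin mRNA exceeded DMT1 mRNA per length in all control libraries, and DMT1 exceeded ferroportin in all TgAPPswe libraries. These are mRNA ratios, and neither protein, translation nor iron was measured here.

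The sensors differed least. Ireb2 (chr9:54863789-54912530, plus strand) encodes iron regulatory protein 2, which binds IREs and is degraded when iron is plentiful. Its FPKM was 12.6, 13.8 and 15.1 in control libraries and 13.6, 13.8 and 13.9 in TgAPPswe libraries. All TgAPPswe libraries lay inside the control range. The TMM-scaled log2 fold change was 0.25 ± 0.07 (SE), but it was 0.04 when only library size was used and -0.005 in limma on log2(FPKM + 1), so no direction can be given. Aco1 (chr4:40143081-40198338, plus strand) encodes iron regulatory protein 1, which is a cytosolic aconitase while it carries an iron-sulfur cluster. Its FPKM was 17.3, 17.6 and 18.02 in control libraries and 12.7, 13.3 and 13.8 in TgAPPswe libraries. The libraries did not overlap, and the log2 fold change was -0.20 ± 0.05 (SE) with TMM and -0.41 with library size alone.

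**Figure D3:**
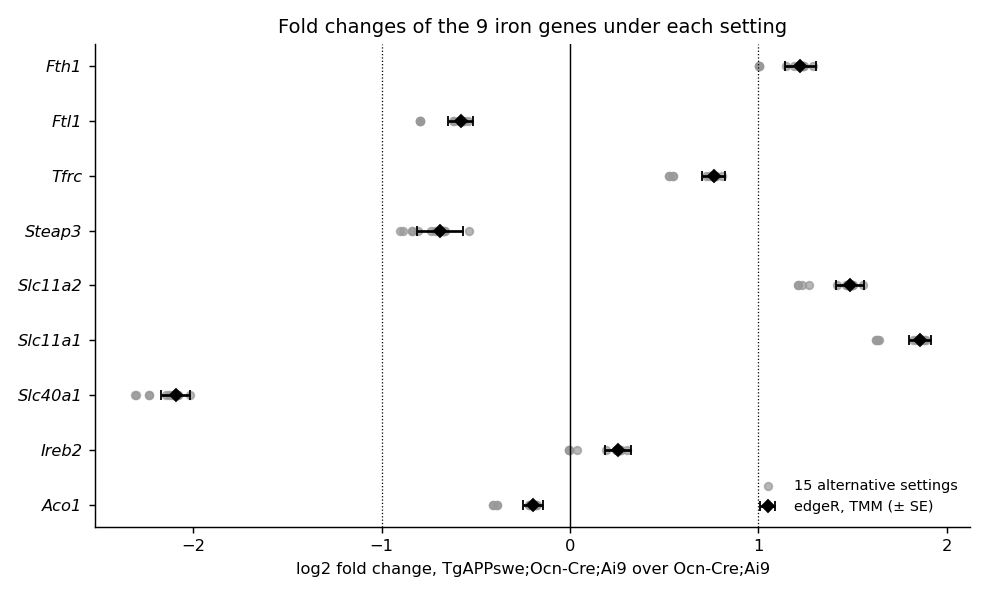
Log2 fold change of TgAPPswe;Ocn-Cre;Ai9 over Ocn-Cre;Ai9 (horizontal axis) for the 9 iron genes. Black diamonds with SE bars are edgeR with TMM, grey points are the 15 alternative settings and dotted lines mark the fold threshold of 1; Ireb2 alone has points on both sides of 0.

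Grouped by their IREs, the genes with a 5′ element had log2 fold changes of 1.22 (Fth1), -0.58 (Ftl1) and -2.09 (Slc40a1), and those with 3′ elements 0.76 (Tfrc) and 1.49 (Slc11a2). The genes with 3′ elements were both higher in TgAPPswe cells, while those with a 5′ element, on which the regulatory proteins act through translation, went in both directions. With 3 and 2 genes chosen on this contrast, the grouping was not tested.

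The order of levels was read from FPKM, which is per length. In control cells it was Ftl1, Fth1, Slc11a1, Slc40a1, Slc11a2, Steap3, Aco1, Tfrc and Ireb2, where Steap3 and Aco1, and Aco1 and Tfrc, overlapped between libraries. In TgAPPswe cells it was Fth1, Ftl1, Slc11a1, Slc11a2, Tfrc, Slc40a1, Ireb2, Aco1 and Steap3, where Slc40a1 and Ireb2, and Ireb2 and Aco1, overlapped. Ferroportin thus went from the fourth place, well above the sensors, to a level that overlapped that of Ireb2. The 3 genes whose profile over the 6 libraries was closest to that of Fth1 were Lrrc28, Pgk1 and Fam214b, with root mean square distances of 0.035, 0.036 and 0.037 in centred log2 CPM. Pgk1, a glycolytic enzyme, had an FPKM of 177 to 184 in control and 322 to 388 in TgAPPswe libraries.

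Other genes of iron handling were taken from 8 lists arranged by role, which hold 102 genes of the table besides the 9, of which 94 were tested. Of these, 9 were up-regulated and 4 down-regulated, 9.57% and 4.26% of those tested, beside the 8.90% and 9.20% of all genes. Their median log2 fold change was -0.02, as for all genes. By adjusted p alone 31 were higher and 27 lower. With library size in place of TMM, which moves the median of all genes by -0.22, these splits became 7 up- and 5 down-regulated, and 23 higher and 47 lower. Of the calls over all genes at both thresholds, 49.2% were upward with TMM and 32.8% with library size. These shares say nothing particular to the iron lists, and the called genes are described by list.

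Of 11 tested genes of iron uptake and reduction, 2 were up-regulated and 2 down-regulated. Lcn2 encodes lipocalin 2, a secreted protein that binds iron-loaded siderophores. It had an FPKM of 8.41, 3.61 and 4.81 in control libraries and 790, 304 and 519 in TgAPPswe libraries. The rise was by 6.80 ± 0.45 on the log2 scale (SE, adjusted p = 3.96e-06, edgeR). The highest TgAPPswe library had more than 2 times the FPKM of the lowest. Steap4, a metalloreductase, rose from 3, 1 and 0 counts in control libraries to 29, 56 and 29 in TgAPPswe libraries (adjusted p = 1.98e-04, edgeR), too few in control for a fold change to be given.

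Trf, which encodes transferrin, fell from an FPKM of 302, 289 and 282 in control libraries to 46.5, 46.0 and 43.2 in TgAPPswe libraries. Its log2 fold change was -2.47 ± 0.06 (SE, adjusted p = 3.61e-08, edgeR). Hfe, the hemochromatosis protein that associates with the transferrin receptor, fell from 98.1 ± 4.88 to 28.2 ± 2.40 FPKM (SD, n = 3), with a log2 fold change of -1.54 ± 0.07 (SE) and an adjusted p of 6.82e-07 (edgeR). Hfe had fractional counts in all 6 libraries. Transferrin mRNA was thus lower in the same libraries in which the mRNA of its receptor was higher. The transporter Slc39a14 was at 8.24 ± 0.933 and 12.6 ± 0.357 FPKM, with a log2 fold change of 0.82 that did not pass the fold threshold (adjusted p = 4.14e-05, edgeR).

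Heme and hemoglobin handling held 13 tested genes, 3 of them up-regulated and 1 down-regulated. Flvcr2, a transporter of the FLVCR family, rose from 0.06, 0.17 and 0.05 FPKM in control libraries to 9.19, 4.82 and 8.27 in TgAPPswe libraries (log2 fold change 6.80 ± 0.40 SE, adjusted p = 1.99e-06, edgeR), on 3 to 8 counts per control library. In limma on log2(FPKM + 1) its log2 fold change was 2.91. Haptoglobin, Hp, binds free hemoglobin and rose from 15.2, 6.53 and 10.9 FPKM in control to 42.8, 66.7 and 53.2 FPKM in TgAPPswe libraries (log2 fold change 2.53, adjusted p = 5.33e-05, edgeR). Cd163, the macrophage receptor that takes up the haptoglobin-hemoglobin complex, fell from 3.60 ± 0.344 to 0.690 ± 0.131 FPKM (log2 fold change -2.18, adjusted p = 6.91e-06, edgeR; -1.45 in limma on log2(FPKM + 1)). Ligand and receptor of hemoglobin clearance thus changed in opposite directions.

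Within heme breakdown, Blvrb, a biliverdin reductase, rose from 252 ± 26.7 to 462 ± 8.16 FPKM, with a log2 fold change of 1.09 (adjusted p = 7.05e-06, edgeR) that was 0.87 with library size alone and so under the threshold. Hmox1, heme oxygenase 1, which frees iron from heme, was at 358, 340 and 335 FPKM in control and 484, 513 and 483 in TgAPPswe libraries. Its libraries did not overlap, but its log2 fold change of 0.73 ± 0.06 was below the fold threshold (adjusted p = 8.03e-06, edgeR). Slc48a1, which carries heme out of the phagolysosome, was similar at 0.70 ± 0.07 (SE, adjusted p = 3.64e-05, edgeR).

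Of 4 tested genes of export and ferroxidases, Cp was up-regulated. Cp encodes ceruloplasmin, the copper enzyme that oxidizes iron leaving through ferroportin. Its FPKM was 7.89, 4.08 and 5.79 in control libraries and 103, 79.8 and 92.3 in TgAPPswe libraries. The log2 fold change was 4.05 ± 0.21 (SE, adjusted p = 9.43e-07, edgeR), so the ferroxidase and the exporter differed between genotypes in opposite directions. Per length, Cp mRNA was below Slc40a1 mRNA in all control libraries and above it in all TgAPPswe libraries.

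**Figure D4:**
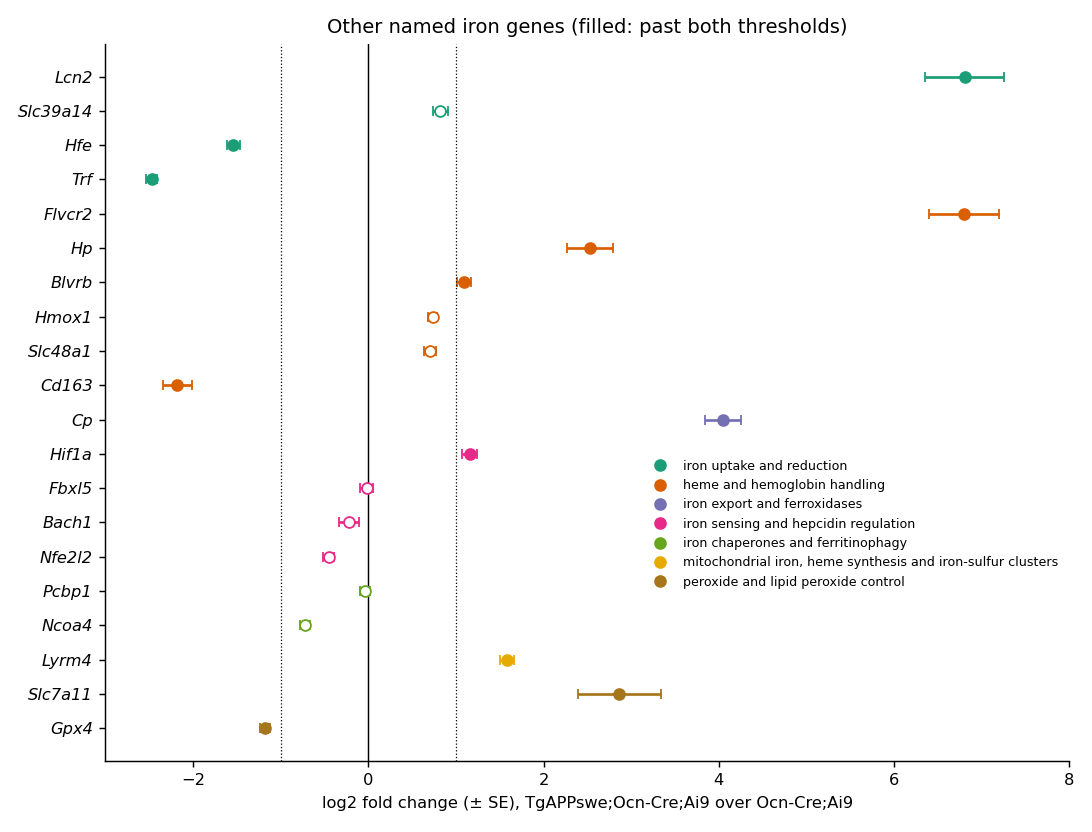
Log2 fold change ± SE (horizontal axis) of 20 named iron genes outside the set of 9, coloured by list; Steap4 is left out for its low control counts. Filled points passed both thresholds and open points did not; dotted lines mark a log2 fold change of 1 in either direction, and Lcn2 and Flvcr2 lie farthest to the right at 6.80.

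Sensing and regulation had 8 tested genes, of which Hif1a was up-regulated. Hif1a, the oxygen-regulated transcription factor, had an FPKM of 26.2, 31.7 and 32.8 in control and 61.1, 54.9 and 59.0 in TgAPPswe libraries. Its log2 fold change was 1.16 ± 0.09 (SE, adjusted p = 7.92e-06, edgeR) and 0.94 with library size alone. Fbxl5, which marks iron regulatory protein 2 for degradation, had a log2 fold change of -0.02 ± 0.07 (SE, adjusted p = 0.841, edgeR) with TMM and of -0.23 (adjusted p = 0.0165) with library size alone, and its FPKM did not overlap between genotypes. Nfe2l2, the NRF2 factor that drives ferritin and Hmox1 transcription, was at 103 ± 7.86 and 65.0 ± 0.267 FPKM (log2 fold change -0.45, adjusted p = 3.33e-04, edgeR), under the fold threshold. Bach1, which represses the same genes until heme binds it, had a log2 fold change of -0.22 ± 0.11 (SE, adjusted p = 0.114, edgeR) with TMM, of -0.44 (adjusted p = 0.0134) with library size alone and of -0.34 (adjusted p = 0.0144) without TgAPPswe replicate 2. NRF2 protein and its activity were not measured, and a link between Nfe2l2 and Fth1 mRNA was not tested.

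Among 6 chaperone and ferritinophagy genes none was past both thresholds. Ncoa4 encodes the receptor that takes ferritin to the lysosome for breakdown. Its FPKM was 72.3, 74.7 and 78.3 in control and 37.5, 40.9 and 39.6 in TgAPPswe libraries, with a log2 fold change of -0.72 ± 0.05 (SE, adjusted p = 7.33e-06, edgeR). Its libraries did not overlap. It was lower in the libraries where Fth1 was higher and Ftl1 lower, and a link to either was not tested. Pcbp1, which delivers iron to ferritin, had a log2 fold change of -0.03 ± 0.06 (SE, adjusted p = 0.63, edgeR) with TMM and of -0.25 (adjusted p = 0.00294) with library size alone, and its FPKM did not overlap between genotypes.

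In the mitochondrial list of 33 tested genes for iron import, heme synthesis and iron-sulfur clusters, 1 was up-regulated and none down-regulated at both thresholds, while 10 were higher and 10 lower by adjusted p alone. The up-regulated gene was Lyrm4, a partner of the cysteine desulfurase that starts cluster assembly, at 7.71 ± 0.486 and 19.9 ± 0.767 FPKM (log2 fold change 1.59, adjusted p = 8.46e-07, edgeR). None of the 9 tested genes of cytosolic iron-sulfur assembly passed both thresholds in edgeR, with 3 higher and 1 lower by adjusted p alone.

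Of 10 genes of peroxide and lipid peroxide control, 1 was up-regulated and 1 down-regulated at both thresholds, and 3 were higher and 2 lower by adjusted p alone. Gpx4, the selenoenzyme that removes lipid peroxides formed in the presence of free iron, had an FPKM of 333, 336 and 308 in control libraries and 122, 129 and 120 in TgAPPswe libraries. Its log2 fold change was -1.18 ± 0.06 (SE, adjusted p = 8.46e-07, edgeR). Slc7a11, the cystine importer that feeds glutathione synthesis, rose from 0.39, 0.49 and 0.76 FPKM to 5.20, 1.44 and 3.45 FPKM (log2 fold change 2.87 ± 0.47 SE, adjusted p = 7.35e-04, edgeR; 1.402 in limma on log2(FPKM + 1)). Slc7a11 had fractional counts in all libraries, and its TgAPPswe libraries spread widely.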

How the data were processed

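RNA-seq libraries of FACS-sorted tdTomato+ BMSCs (3 Ocn-Cre;Ai9 and 3 TgAPPswe;Ocn-Cre;Ai9) were grouped by their genotype labels. The authors deposited estimated counts per gene and FPKM values per gene and library. The submitters' processing notes name HISAT2 2.0.4, Bowtie2 2.2.5, RSEM 1.2.12, DESeq2 1.4.5 and mm10. The authors' log2 ratios, p-values and 4 columns of group means were not used.

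Estimated counts were rounded, although raw counts had been planned for, and tested with edgeR 4.0.16 under R 4.3.3 (quasi-likelihood test on genotype only, after filterByExpr and TMM) over all 12701 genes that passed the filter, with Benjamini-Hochberg adjustment. The biological coefficient of variation was 9.85%. The script was tested on simulated counts. Totals of 19340810 to 22037840 counts leave little counting error for the 9 genes, each with at least 603 counts in every library. Counts differed between libraries by 2.65 to 6.61 times the sampling noise within a genotype, so none was a duplicate. Alternatives used limma 3.58.1, DESeq2 1.42.0, other normalizations and filters, a replicate block and each library left out.

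The 9 genes and all lists were chosen with earlier results of these data known. Named besides the 9 were listed iron genes past both thresholds, 10 iron genes whatever their values, App, at most 3 genes of a marker list, and the 3 genes closest to Fth1. Hamp and, beyond the limit of 3, the stromal marker Lum were added after their values were seen. The iron lists held 110 symbols, of which 4 were not matched and 4 were second names of listed genes. The marker lists held 85 symbols, of which 5 were not matched. Of 17 stromal, 10 neutrophil, 5 B cell, 6 T and NK cell and 5 endothelial markers, 2, 1, 1, 0 and 1 were up-regulated and 0, 0, 0, 1 and 0 down-regulated, and the summed FPKM of the last 3 lists stayed at or under 6.07. Positions are from GENCODE M21, 1-based.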

Additional observations from a re-analysis of the deposited data

How the results depend on the processing

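Over 15 alternative settings, 131 of 135 recomputed log2 fold changes of the 9 genes kept their direction and their call by the joint thresholds. The exceptions were Fth1 in limma on unfiltered log2(FPKM + 1), at 1.003, and Ireb2, which reversed to -0.00485 in limma on log2(FPKM + 1) with or without a filter and to -0.00493 on log2(FPKM + 0.1). The adjusted p alone rose above 0.05 in 6 of the 135, those 4, Ireb2 with library size only and Ftl1 in limma on unfiltered log2(FPKM + 1). The cause was not tested. With library size only and in the 3 limma settings, Fbxl5, Pcbp1 and Bach1 were lower by adjusted p alone, which they were not with TMM on all libraries. The value of Fbxl5 reversed without control replicate 1 or 3 or TgAPPswe replicate 2, with a range of -0.0857 to 0.0104 over the 6 libraries left out. With adjusted p alone, 5 members of the set were higher (4 with library size only) and 4 lower, and 31 other iron genes were higher and 27 lower, since the fold threshold is then dropped. Leaving out each library in turn kept 3 up- and 1 down-regulated genes of the set and 9 up- and 4 down-regulated other iron genes. The pathway count of up-regulated genes was lowest in limma on log2(FPKM + 1), at 6. In limma on log2(FPKM + 1) the log2 fold change was 2.91 for Flvcr2, 1.402 for Slc7a11 and -1.45 for Cd163, and Steap4 was under the threshold. On log2(FPKM + 0.1) it was 5.28 for Flvcr2 and 2.29 for Slc7a11. With at least 10 counts in every library Steap4 and Flvcr2 were not tested.

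Libraries share replicate numbers across genotypes, so pairing was checked. Correlations of same-numbered deviations were 0.026, 0.038 and 0.356. Controls 2 and 3 correlated best with their own number, and control 1 with TgAPPswe 2, at 0.052. The numbers were not taken to pair the libraries in the main fit. What the libraries of replicate 3 share was not tested. A replicate block left 3 up- and 1 down-regulated genes of the set and 9 and 4 of the other iron genes. All groups had 3 libraries, in which a library that stands apart cannot be called, and depth did not limit the 9 genes.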
